A study of Mus musculus with 4 samples.

Results

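The 35 genes described here belong to the amino acid stress response, and they were followed across the cell types of tumour-draining lymph nodes. They were chosen by gene symbol from the 31053 genes of the deposited feature table, and all 35 were found. The list holds the sensor kinase GCN2 (Eif2ak4), the transcription factor ATF4 with its partners, genes that ATF4 is known to induce, amino acid transporters and aminoacyl-tRNA synthetases. When a cell runs short of an amino acid, uncharged tRNA activates GCN2, which phosphorylates eIF2. Bulk protein synthesis then slows while translation of Atf4 mRNA is favoured, and ATF4 switches on genes that make, import or load amino acids. Because much of this control acts on translation, the level of Atf4 mRNA is not a measure of ATF4 activity. The pathway is known in immune cells as a sensor of tryptophan loss through the enzyme IDO, and activated lymphocytes need serine, glycine and one-carbon units for nucleotide synthesis.

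Cells came from inguinal lymph nodes of 4 C57BL/6J mice with B16F10 tumours, an established mouse melanoma line, in both thighs. The 2 control mice were left untreated. Of the other 2 mice, each was given the IDO pathway inhibitor indoximod in its water (2 mg/ml) and the BTK inhibitor ibrutinib (350 ug daily) starting on day 9, then the alkylating drug cyclophosphamide (150 mg/kg) on day 10, and nodes were taken 48 h after that dose. Each mouse gave its own library, but the barcodes of the deposited matrix carry only a library number from 1 to 4, which no deposited name ties to a mouse or a treatment. Treated against control is therefore not analysed here, libraries are given one by one, and a difference between them holds treatment, mouse and preparation together. Age and sex are not given in the sources used here.

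Of 30824 barcodes, 26096 had 300 or more genes and no more than 10% mitochondrial UMIs (unique molecular identifiers, each standing for 1 captured mRNA molecule), with 5667, 5758, 6335 and 8336 in libraries 1 to 4 and median depths from 5229 to 5558 UMIs. Marker genes placed 20555 of them (78.8%) in 19 classes, named "-like" because the names rest on markers alone. Among the 5541 left out, 3332 were T cells without a clear subset and 1109 carried markers of both T and B cells. Libraries shared 61 barcode sequences among the kept cells. The largest classes were B-like (8662 cells), CD8 T-like (6416), CD4 T-like (2779), activated T-like (519), mature DC-like (420) and regulatory T-like (320). Germinal centre B-like cells numbered 125 and 129 in libraries 1 and 2 but 3 in each of libraries 3 and 4. Leading genes included the markers Apol7c, Fscn1 and Ccl22 in mature DC-like cells, Lyz2 and Ifitm3 in monocyte-like cells, Mef2b and Rgs13 in germinal centre B-like cells, and Top2a and Mki67 in dividing T-like cells. These markers were part of the gates, so their rank is no separate evidence for the names. Leading genes outside the marker lists included H2-M2 and Cxcl16 in mature DC-like and Fcer1g and Cxcl10 in monocyte-like cells. They also included Ighg1 and H1fx in germinal centre B-like and Hist1h1b and Hist1h2ap in dividing T-like cells.

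The promoters were searched for the amino acid response element, the DNA word recognised by ATF4 paired with a C/EBP protein. Windows from 250 bases before to 50 after the annotated start (RefSeq, build GRCm38.p6) were found for 29 of the 35 genes and searched on both strands for TGATGNAA, whose reverse complement is TTNCATCA; no other motif was searched. It stood in 11 of the 29 (37.9%), against 4.51% of all 27025 genes with a window and 3.97% of all 32851 windows. Because the list was made up in part of genes that ATF4 is known to induce, its higher share may come from that choice. It is no result about these cells. The 11 were Aars, Asns, Chac1, Gars, Iars, Nupr1, Slc7a11, Tars, Trib3, Vldlr and Yars. The windows of Psat1, Phgdh, Psph, Shmt2 and Mthfd2 did not hold these letters. A set of promoters is printed because their genes carry patterns described further on: Asns at chr6:7693160-7693459 on the minus strand (germinal centre B-like cells, and a difference between libraries), Slc7a11 at chr3:50443564-50443863 on the minus strand (mature DC-like cells) and Gars at chr6:55037751-55038050 on the plus strand (dividing T-like and germinal centre B-like cells). Each runs 5′ to 3′ along the gene, with matches to the motif in capitals. A match describes the letters and is not a measured binding site.
Asns: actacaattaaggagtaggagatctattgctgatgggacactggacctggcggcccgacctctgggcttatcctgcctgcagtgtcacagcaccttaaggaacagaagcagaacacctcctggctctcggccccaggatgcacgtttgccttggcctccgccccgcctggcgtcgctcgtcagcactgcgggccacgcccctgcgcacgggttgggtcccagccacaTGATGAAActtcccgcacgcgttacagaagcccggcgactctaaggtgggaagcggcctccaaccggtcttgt
Slc7a11: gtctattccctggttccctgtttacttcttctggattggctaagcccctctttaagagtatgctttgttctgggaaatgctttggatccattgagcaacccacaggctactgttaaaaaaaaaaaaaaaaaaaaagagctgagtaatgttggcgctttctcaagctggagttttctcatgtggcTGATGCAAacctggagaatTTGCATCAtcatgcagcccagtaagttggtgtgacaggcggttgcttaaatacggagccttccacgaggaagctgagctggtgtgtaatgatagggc
Gars: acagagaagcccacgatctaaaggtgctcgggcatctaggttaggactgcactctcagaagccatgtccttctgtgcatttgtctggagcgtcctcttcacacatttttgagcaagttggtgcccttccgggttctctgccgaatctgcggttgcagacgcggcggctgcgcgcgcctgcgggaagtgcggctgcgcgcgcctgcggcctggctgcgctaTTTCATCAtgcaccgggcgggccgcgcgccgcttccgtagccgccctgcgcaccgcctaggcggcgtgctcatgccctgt
The match began at -23 in Asns and at -30 in Gars, counted from the start, and Slc7a11 and Aars were the members with 2 matches.

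Levels are given as CPM, the UMIs of a gene scaled to 1000000 UMIs of its class, and are compared between classes for the same gene. Summed over the 35 genes, the level was 992 CPM in CD8 T-like, 1009 in B-like, 1062 in CD4 T-like and 1171 in regulatory T-like cells. It was 1268 in activated T-like, 1355 in activated B-like and 1455 in mature DC-like cells, while germinal centre B-like cells had 1522. Dividing T-like cells reached 1802 CPM (1742, 1609, 1969 and 1819.8 in libraries 1 to 4). Monocyte-like cells stood at 2045, of which 788 came from the sensor and transcription factor group, with 617 from Cebpb alone. Among the 14 classes with 50 or more cells, the class that was lowest or highest depended on the gene. Phgdh ran from 1.49 CPM in monocyte-like to 284 in dividing T-like cells, Slc7a11 from 0 in NK-like to 84.2 in mature DC-like cells, and Slc3a2 from 24.8 in macrophage-like to 91.5 in activated T-like cells. These lowest levels rest on few counts, because the classes held 668961 (monocyte-like), 416746 (NK-like) and 282484 UMIs (macrophage-like) in all. Which class was lowest is therefore uncertain. Vldlr, a lipoprotein receptor, had no UMI in any class, and Chac1, a glutathione-degrading enzyme, and Trib3, a pseudokinase that damps ATF4, stayed at or below 2.13 CPM in all 14. Macrophage-like cells had a median depth of 1116 UMIs.

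**Figure D1:**
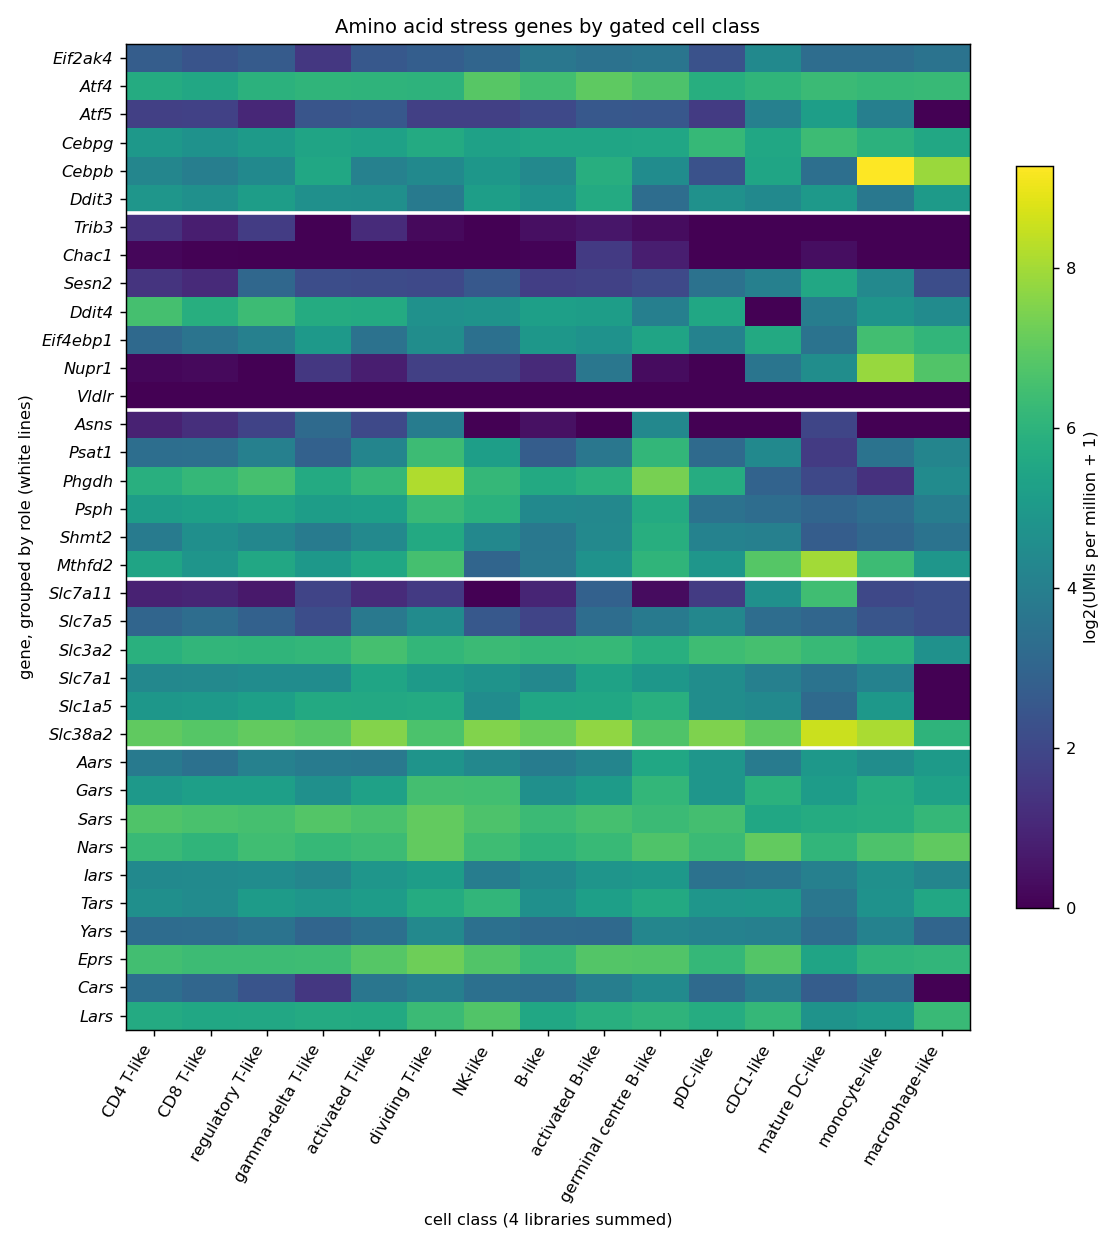
Level of each of the 35 genes (vertical axis, grouped by role between white lines) in 15 gated classes (horizontal axis), as log2(CPM + 1) with the 4 libraries summed; each line is to be read across classes. Phgdh and Psat1 are brightest in dividing T-like and germinal centre B-like cells, Slc7a11, Sesn2 and Mthfd2 in mature DC-like cells, and Cebpb and Nupr1 in monocyte-like and macrophage-like cells.

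Classes were compared within each library. A gene was called if it differed by 1.5-fold or more, always the same way, in each library that had 5 or more cells of both classes and 5 or more counts expected in the class with fewer UMIs, with 3 such libraries needed. This is a rule of size, not a significance test, and no p-value is given. Ratios are log2 of the summed levels, with their range over libraries; intervals are exact 95% limits that cover counting error only. Classes are said not to overlap when all libraries of the higher class lay above all libraries of the lower. How many of all genes separate in this way was not counted.

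Dividing T-like cells (226 cells: 41, 51, 69 and 65 in the libraries) were compared with T cells that had no UMI of 8 division genes (12776 cells). Enzymes that build serine, glycine and one-carbon units were higher, with most aminoacyl-tRNA synthetases and the transporter Slc7a5, whereas the stress genes Ddit3 and Ddit4 were lower and Atf4 itself was not called. Of 27 members with enough counts, 14 were higher and 2 lower, where 27.0% of all 8792 tested genes were called (1720 higher, or 19.6%, and 652 lower, or 7.42%). The median ratio was 0.84 over the members and 0.21 over all genes. The 8 members with too few counts were Asns, Atf5, Chac1, Nupr1, Sesn2, Slc7a11, Trib3 and Vldlr.

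All 5 tested synthesis enzymes were called higher. Phgdh, which commits glycolytic carbon to serine synthesis, stood at 223, 272, 324 and 296 CPM in dividing T-like cells of libraries 1 to 4. In non-dividing T-like cells it was 56.1, 57.5, 69.6 and 74.3, so the classes did not overlap, and the ratio was 2.12 (1.99 to 2.24). Psat1, the transaminase of the next step, was at 73.3, 58.2, 105 and 80.3 against 8.02, 8.97, 10.1 and 9.65 CPM. Its ratio of 3.14 (2.70 to 3.38) was the largest among the tested members. Psph, the phosphatase that completes serine, had a ratio of 1.10 (0.88 to 1.23). Shmt2, the mitochondrial enzyme that turns serine into glycine and a one-carbon unit, reached 1.37 (1.15 to 1.53). Mthfd2, the next mitochondrial one-carbon enzyme, was at 107, 59.8, 93.9 and 105 against 31.7, 29.9, 34.2 and 34.5 CPM, a ratio of 1.49 (1.00 to 1.76). Asns, which makes asparagine, had only 3 and 1 counts in non-dividing cells of libraries 1 and 2 and could not be tested; dividing cells were at 7.33, 8.90, 23.02 and 13.2 CPM.

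Of 10 tested synthetases, which load amino acids onto their tRNAs, 7 were called: Gars (1.46), Aars (1.28), Yars (1.14), Tars (1.13), Nars (0.89), Eprs (0.84) and Lars (0.79). Gars, which loads glycine, was at 80.7, 86.5, 107 and 82.9 CPM in dividing and 32.5, 32.5, 34.6 and 32.5 in non-dividing T-like cells, again without overlap. Sars, which loads serine, was not called, at 0.39 (0.26 to 0.54). Among 5 tested transporters, Slc7a5, the large neutral amino acid carrier, was the 1 called, at 18.3, 16.98, 26.05 and 22.4 against 7.20, 8.49, 8.46 and 8.36 CPM (1.40, 1.00 to 1.62). Its heavy chain partner Slc3a2 was not, at 0.13 (-0.31 to 0.47). Slc7a1 (0.71), Slc1a5 (0.68) and Slc38a2 (-0.32) were not called.

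Among effectors, Eif4ebp1, which restrains cap-dependent translation, was higher by 1.11 (1.06 to 1.18). Ddit4, an inhibitor of mTORC1, was at 38.5, 42.9, 13.9 and 11.8 CPM in dividing and 86.2, 78.7, 53.5 and 55.6 in non-dividing cells, a ratio of -1.44 (-2.23 to -0.88). Ddit3, which encodes the stress factor CHOP, was at 12.8, 11.3, 12.1 and 15.1 against 21.4, 22.4, 28.2 and 30.3 CPM (-1.01, -1.22 to -0.74). For both genes every dividing library lay below every non-dividing one. Atf4 mRNA was at 85.3, 67.9, 58.2 and 45.4 against 48.1, 45.9, 50.8 and 52.3 CPM, above in 3 libraries and below in library 4 (0.33, -0.21 to 0.83). Eif2ak4 (0.34), Cebpg (0.83) and Cebpb (0.27) were not called either. Of 60 other genes of the pathway found in the table, 44 could be tested, of which 14 were higher and 2 lower; the largest were Shmt1 (2.41), the cytosolic counterpart of Shmt2, Pck2 (1.90) and Atf6 (1.78).

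These classes differed in more than division. Median depth was 20176 UMIs in dividing and 6156 in non-dividing T-like cells. Foxp3, the regulatory T cell factor, was detected in 34.1% of dividing and 3.29% of non-dividing cells, and a Cd8 gene in 48.7% and 53.4%. The part of Foxp3-positive cells by themselves was not tested. An alternative given below left them out together with Cd4-positive cells. With every cell thinned to 1500 UMIs, 5 members kept enough counts for the rule, and Ddit4 (-1.82) was the 1 called. Without a call, the thinned ratio was 3.22 for Psat1 and 1.87 for Phgdh, while it moved to 0.78 for Mthfd2, 0.74 for Slc7a5, 0.41 for Psph, 0.28 for Nars and -0.056 for Tars. Another alternative kept in both classes only Cd8-positive cells without a UMI of Cd4 or Foxp3. With these cells 4 of 20 tested members were called, all higher: Phgdh (1.87), Mthfd2 (1.69), Gars (1.18) and Psph (0.99). Psat1 was at 2.78 there with too few counts for the rule, Ddit4 at -0.81 and Eif4ebp1 at 0.19. Scaling by trimmed means (TMM) in place of the class total shifted the median of all genes by -0.38 and left 8 members higher and 2 lower, beside 931 genes higher and 1450 lower in all. Psph, Aars, Nars, Yars, Eprs and Lars were the calls lost, and no called member changed direction. Strict gates, which allow no marker of another lineage, ended the calls of Ddit3 (-0.87), Eif4ebp1 (0.66), Psph and 4 synthetases, and equal weight for every cell ended those of Ddit4 (-1.28), Yars, Eprs and Lars.

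**Figure D2:**
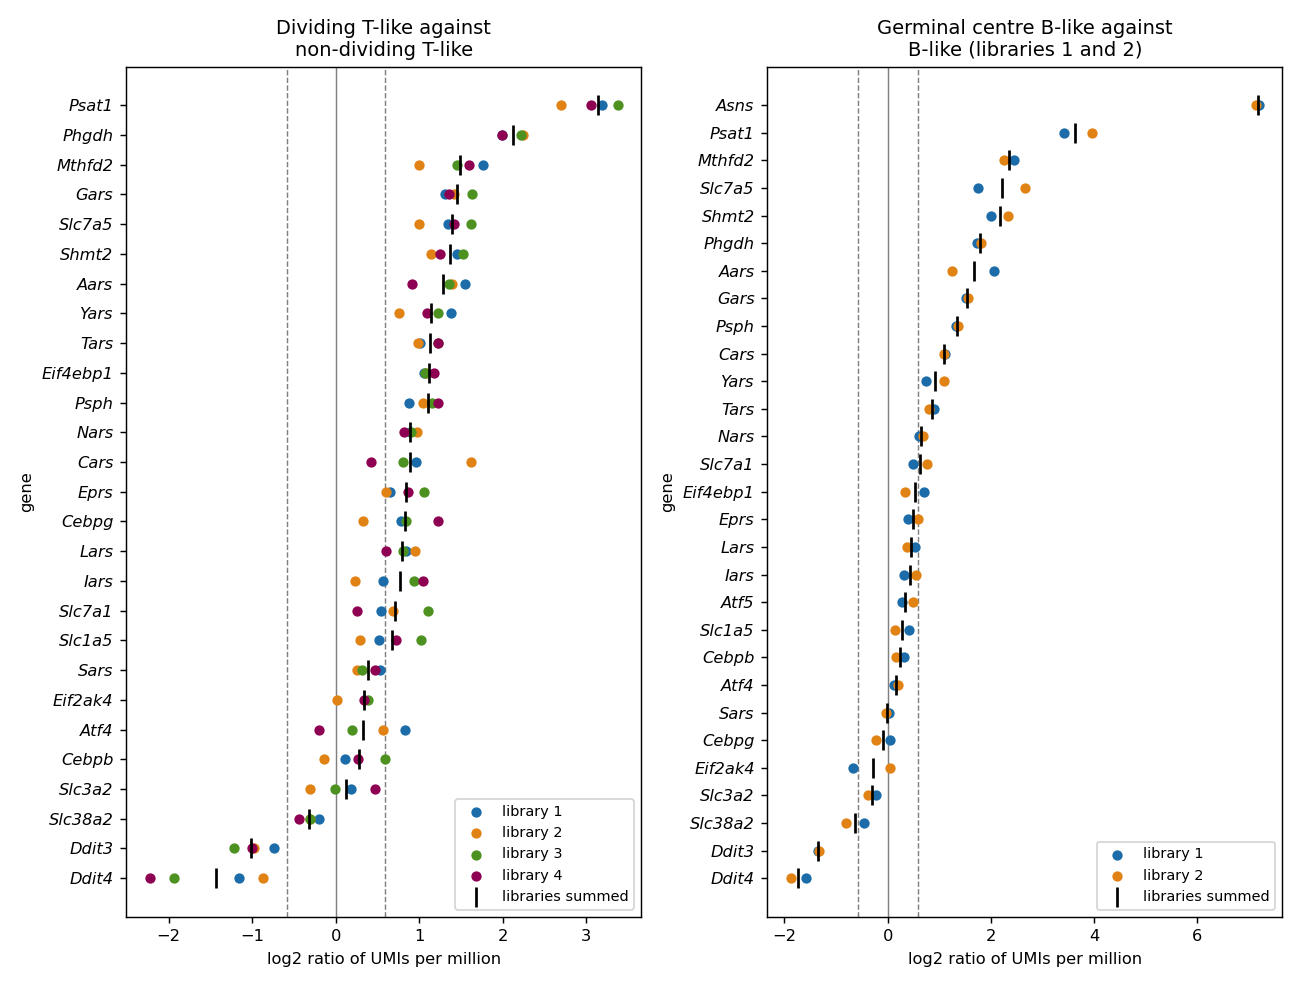
Log2 ratio of CPM (horizontal axis) for each tested member (vertical axis), in dividing T-like against non-dividing T-like cells on the left and germinal centre B-like against B-like cells on the right; coloured points are libraries, black bars the libraries summed, and dashed lines 1.5-fold. Psat1 leads on the left at 3.14 and Asns on the right at 7.17, while Ddit3 and Ddit4 lie beyond the lower dashed line in every library shown.

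Germinal centre B-like cells, B cells that divide during an antibody response, could be compared with other B-like cells only in libraries 1 and 2, so a call rests on 2 libraries, and the comparison was set up after the cell numbers were seen. Asns, Psat1 and Mthfd2 had the largest ratios. Of 29 tested members 13 were higher and 2 lower, where 43.1% of all 9530 tested genes were called (1996 higher, or 20.9%, and 2108 lower, or 22.1%). The medians were 0.52 over members and -0.06 over all genes. All 6 synthesis genes were called higher.

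Asns had 75 counts in germinal centre B-like cells (17.8 and 18.5 CPM in libraries 1 and 2) and 2 counts in B-like cells (0.122 and 0.131 CPM), a ratio of 7.17, counting interval 5.27 to 10.24. Psat1 was at 72.7 and 65.01 against 6.81 and 4.19 CPM (3.63). Phgdh was at 147 and 179 against 44.5 and 50.8 CPM (1.79). For each of these genes, both libraries of germinal centre B-like cells lay above both libraries of B-like cells. Mthfd2 was at 69.6 and 64.6 against 12.8 and 13.6 CPM (2.34), and Shmt2 (2.17) and Psph (1.34) completed the group. Slc7a5 was at 10.98 and 14.9 against 3.28 and 2.36 CPM (2.21), without a call for Slc3a2 (-0.31). Of the synthetases 6 were called: Aars (1.67), Gars (1.53), Cars (1.09), Yars (0.92), Tars (0.85) and Nars (0.65). Ddit4 (-1.74) and Ddit3 (-1.35) were lower, and Atf4 stood at 96.8 and 107 against 88.7 and 93.1 CPM (0.17), not called. Of 44 other pathway genes 12 were higher and 4 lower, led by Slc16a10, an aromatic amino acid carrier with 2 counts in germinal centre cells (-3.01, counting interval -6.09 to -1.10), Shmt1 (2.62) and Sesn1 (-1.56). Median depth was 12542 UMIs against 3772, and with thinned cells 2 of 12 tested members were called, Phgdh at 1.15 and Ddit4 at -1.90. Untested or uncalled there were Psat1 at 4.00, Mthfd2 at 2.20, Asns at 7.05, Tars at 0.19 and Nars at -0.081. The stricter barcode filter and strict gates each ended the calls of Asns (6.86 and 7.95, for too few counts), Nars and Cars, strict gates also that of Yars, and equal weight for every cell those of Nars, Tars and Yars.

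At least 3 division genes were detected in 63.8% of germinal centre B-like cells, so division was also compared inside the class. Only libraries 1 and 2 were used, with 68 and 95 such cells and 57 and 34 others, so a call again rests on 2 libraries. Median depth in these libraries was 17462.5 and 17493 UMIs in the dividing cells and 9005 and 8482 in the others. Psat1 (1.08) and Mthfd2 (0.78) were higher in the dividing cells and Eif4ebp1 (-0.82) and Cebpb (-0.62) lower, 2 and 2 of 24 tested members, where 19.7% of all 5495 tested genes were called (712 higher, and 368 lower, or 6.7%). That share of members is below the share of all genes. Eif4ebp1 and Cebpb lost their calls with the stricter barcode filter, strict gates and equal weight for every cell. Phgdh was at 0.71 (0.42 to 1.05) and Asns at -0.73 (-1.40 to 0.18), neither called, although Asns and Cars were called lower with equal weight for every cell. Asns counts were 53 in the dividing and 22 in the other germinal centre cells. Of 33 other pathway genes 3 were higher, Shmt1 (2.95, counting interval 1.04 to 6.03, on 62 against 2 counts), Hars (1.09) and Mthfd1l (0.67).

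In B-like against CD4 T-like cells the synthetases were not called, and 3 of 29 tested members were higher and 4 lower, where 24.5% of all 10502 tested genes were called (1511 higher, or 14.4%, and 1060 lower, or 10.1%). Eif4ebp1 was at 28.6, 28.8, 32.8 and 26.6 CPM in B-like and 6.98, 5.71, 11.4 and 7.46 in CD4 T-like cells (1.87, 1.53 to 2.33). Eif2ak4, the GCN2 gene, was at 14.1, 12.3, 12.6 and 9.63 against 5.98, 7.07, 4.50 and 5.12 CPM (1.08, 0.80 to 1.48). Atf4 was at 88.7, 93.1, 86.02 and 86.2 against 53.3, 48.2, 52.8 and 50.8 CPM (0.78, 0.70 to 0.95). For all 3 the lowest B-like library was above the highest CD4 T-like library. Members were called about as often as all tested genes in this comparison. The call of Eif2ak4 was lost with the stricter barcode filter (0.97) and with thinned cells (1.22), and that of Atf4 with thinned cells (0.72). Lower in B-like cells were Mthfd2 (-1.72), Slc7a5 (-1.40), Ddit4 (-1.31) and Psph (-0.80). Among 46 other pathway genes 10 were higher and 2 lower, led by Atf6 (2.64), a sensor of endoplasmic reticulum stress, the synthetase gene Vars (2.08) and Pck2 (1.98).

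CD8 T-like and CD4 T-like cells differed in 1 of 29 tested members, where 5.43% of all 10154 tested genes were called (263 higher, or 2.59%, and 288 lower, or 2.84%). This was Shmt2, at 22.7, 19.96, 25.6 and 24.6 CPM in CD8 T-like against 10.2, 10.1, 16.8 and 16.2 in CD4 T-like cells (0.79, 0.60 to 1.15). Its call was lost with strict gates and when every cell was given the same weight. Ddit4 was at -0.74 (-0.92 to -0.52) and Mthfd2 at -0.59 (-0.61 to -0.58), neither called, although Ddit4 was called with strict gates or without library 3. No other pathway gene of 46 was called, and TMM gave 330 genes higher and 195 lower.

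The comparison of regulatory T-like with CD4 T-like cells gave no call among 21 tested members, where 4.86% of all 6404 tested genes were called (231 higher, or 3.61%, and 80 lower, or 1.25%); TMM gave 124 genes higher and 157 lower. Phgdh was at 108, 80.2, 69.1 and 111 against 42.9, 50.9, 65.6 and 65.7 CPM (0.69, 0.07 to 1.33) and was called once library 3 was left out. Xbp1 (0.88), a factor of the unfolded protein response, was the 1 call among 35 other pathway genes.

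Cells with immediate early genes of antigen receptor signalling had few member calls. For activated against non-activated T-like cells 2 of 26 tested members were higher and 0 lower, where 2.5% of all 8275 tested genes were called (173 higher, or 2.09%, and 34 lower, or 0.411%). Slc7a1, the arginine and lysine carrier, was at 45.8, 39.8, 30.4 and 56.4 against 19.1, 16.7, 20.02 and 17.8 CPM (1.23, 0.60 to 1.67). Psat1 was at 17.2, 17.9, 19.6 and 15.3 against 8.23, 8.97, 9.56 and 9.44 CPM (0.94, 0.70 to 1.06). Slc7a1 lost its call with the stricter barcode filter and strict gates, Psat1 with equal weight for every cell, and both with thinned cells. Both calls were also lost with TMM, which gave 120 genes higher and 73 lower. Slc7a5 and Tars were called only after the stricter barcode filter or, for Slc7a5, without library 3. In Cd8-positive cells without Cd4 or Foxp3, Psat1 lost its call while Slc38a2 and Ddit4 gained one. Myc (2.26), the growth factor response gene, and the chaperone gene Hspa5 (1.39) were the calls among 42 other pathway genes.

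For activated B-like against B-like cells 2 of 23 tested members were higher and 0 lower, where 1.05% of all 6872 tested genes were called (60 higher, or 0.873%, and 12 lower, or 0.175%). They were Slc7a1 (1.06, 0.61 to 1.71) and Mthfd2, at 25.3, 29.8, 21.5 and 26.2 against 12.8, 13.6, 12.6 and 11.8 CPM (1.03, 0.78 to 1.16). Without called doublets, or with equal weight for every cell, Slc7a1 was no longer called. With TMM Slc7a1 was lost and the counts over all genes were 38 genes higher and 25 lower; with the stricter barcode filter both calls were lost. Cebpb was at 76.05, 17.03, 89.97 and 36.7 CPM against 17.3 to 20.8 and was not called (1.48, -0.23 to 2.17). S100a9 and S100a8, which neutrophils express, were among the 5 leading genes of that class. S100a8 had a UMI in 0.338% of its 296 cells and 0.0808% of the 8662 B-like cells, so its rank rests on very few cells. The part of such cells in the Cebpb level was not tested. Of 39 other pathway genes Myc (2.59) and Ppp1r15a (1.28), which helps reverse eIF2 phosphorylation, were higher.

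Mature DC-like cells, named for markers of dendritic cells that migrate and present antigen, had the highest levels of Slc7a11, Mthfd2, Sesn2, Atf5, Cebpg and Slc38a2 among the 14 classes, and the lowest of Psat1, Psph and Shmt2. The 14 leave out the small cDC1-like (34 cells) and neutrophil-like (18 cells) classes. Slc7a11 was higher in neutrophil-like cells, and against cDC1-like cells only Slc38a2 of these genes was called, as given further on. CD4 T-like cells were used as a common baseline, chosen after the data were seen. Against them 6 of 29 tested members were higher and 10 lower, where 41.3% of all 8212 tested genes were called (1536 higher, or 18.7%, and 1856 lower, or 22.6%). Medians were -0.18 over the members and -0.11 over all genes. Of 5 tested synthesis genes 1 was higher and 4 lower.

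Slc7a11, the cystine importer, was at 57.4, 55.6, 89.9 and 108 CPM in mature DC-like cells and at 0, 0, 1.89 and 1.28 in CD4 T-like cells, on 331 and 14 counts (6.64, counting interval 5.87 to 7.53). The ratio was 7.40 without library 3, 6.00 with the stricter barcode filter, 7.42 with equal weight for every cell and 7.53 with thinned cells. Its level was 0.943 CPM in B-like and 2.99 in monocyte-like cells. Mthfd2 was at 326, 320.1, 233 and 193 against 41.4, 36.5, 43.3 and 43.3 CPM (2.61, 2.16 to 3.13). Neither gene overlapped between the classes. Sesn2, a leucine-binding brake on mTORC1, was at 30.1, 42.3, 60.6 and 45.96 against 1.99, 2.18, 0.947 and 1.49 CPM (4.83), and its call was lost when library 2, 3 or 4 was left out. Atf5, a relative of Atf4, was at 41.6, 39.7, 39.1 and 28.1 against 1.74, 1.36, 2.84 and 3.41 CPM (3.88, 3.04 to 4.87). Slc38a2, a carrier of small neutral amino acids, was at 469, 320.1, 308 and 388 against 155, 118, 119 and 124 CPM (1.52, 1.37 to 1.65). Cebpg, which pairs with ATF4, was the last of the 6 (1.47, 1.25 to 1.64).

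Phgdh was at 1.44, 6.61, 1.95 and 2.74 CPM in mature DC-like cells, on 12 counts, and at 42.9, 50.9, 65.6 and 65.7 in CD4 T-like cells (-4.22, -5.07 to -2.94). Psph (-2.31), Psat1 (-2.17, on 8 counts) and Shmt2 (-1.28) were lower too, while Mthfd2, which acts after them, was higher. Ddit4 (-2.69), the neutral amino acid carrier Slc1a5 (-1.83) and the synthetases Eprs (-1.10), Sars (-1.03), Tars (-1.02) and Lars (-0.92) were also lower. Of 41 other pathway genes 5 were higher and 15 lower, led by Myc (-3.91), Mthfd1l (-2.66) and Eef1e1 (-2.36). Median depth was 8769 UMIs against 5736 in CD4 T-like cells, and with strict gates Slc7a11, Sesn2, Atf5, Psat1, Shmt2 and Lars were no longer called, with 20 members left to test. The stricter barcode filter ended the calls of Psat1, Shmt2 and Tars. With thinned cells 4 of 9 tested members were called, and ratios moved to -0.54 for Psat1, -5.12 for Phgdh, -1.95 for Shmt2, -3.31 for Slc1a5, 5.95 for Sesn2 and -3.62 for Ddit4.

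Fewer members could be tested against other myeloid classes. Against monocyte-like cells (74 cells) 3 of 13 tested members were higher and 2 lower, where 29.7% of all 3570 tested genes were called (531 higher, or 14.9%, and 529 lower, or 14.8%); TMM gave 845 genes higher and 322 lower. Slc7a11 was higher, on 331 counts against 2 (4.81, counting interval 2.95 to 7.87), as were Mthfd2 (1.64) and Sesn2 (1.25). The Slc7a11 ratio was 5.48 without library 2, and its call was lost with strict gates. The call of Sesn2 was lost with the stricter barcode filter (1.04), strict gates (1.67), equal weight for every cell (0.64) and thinned cells (0.66). Cebpb, a factor of myeloid differentiation, was at 10.05, 6.61, 6.84 and 12.3 against 561, 370.3, 805 and 821 CPM (-6.04, -6.88 to -5.80). Nupr1, a stress-induced chromatin protein, was at 18.7, 14.6, 17.6 and 32.2 against 145, 84.2, 285 and 454 CPM (-3.34), with its call lost when library 1, 3 or 4 was left out. Of 15 other pathway genes 2 were higher and 6 lower, led by Slc38a1 (-2.63), Xbp1 (-2.47) and Eif2ak2 (-2.28).

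Against cDC1-like cells (34 cells: 9, 6, 11 and 8) 1 of 8 tested members were higher and 0 lower, where 23.9% of all 2332 tested genes were called (389 higher, or 16.7%, and 168 lower, or 7.2%); TMM gave 582 genes higher and 85 lower. The call was Slc38a2 (1.54, 0.98 to 2.84), at 2.15 with equal weight for every cell. Mthfd2 was at 1.18 (0.07 to 3.84) and Slc7a11 at 1.78, neither called, although Slc7a11 was called with TMM. Ppp1r15a (1.66) and Rheb (-1.01), an activator of mTORC1, were the calls among 7 other pathway genes.

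**Figure D3:**
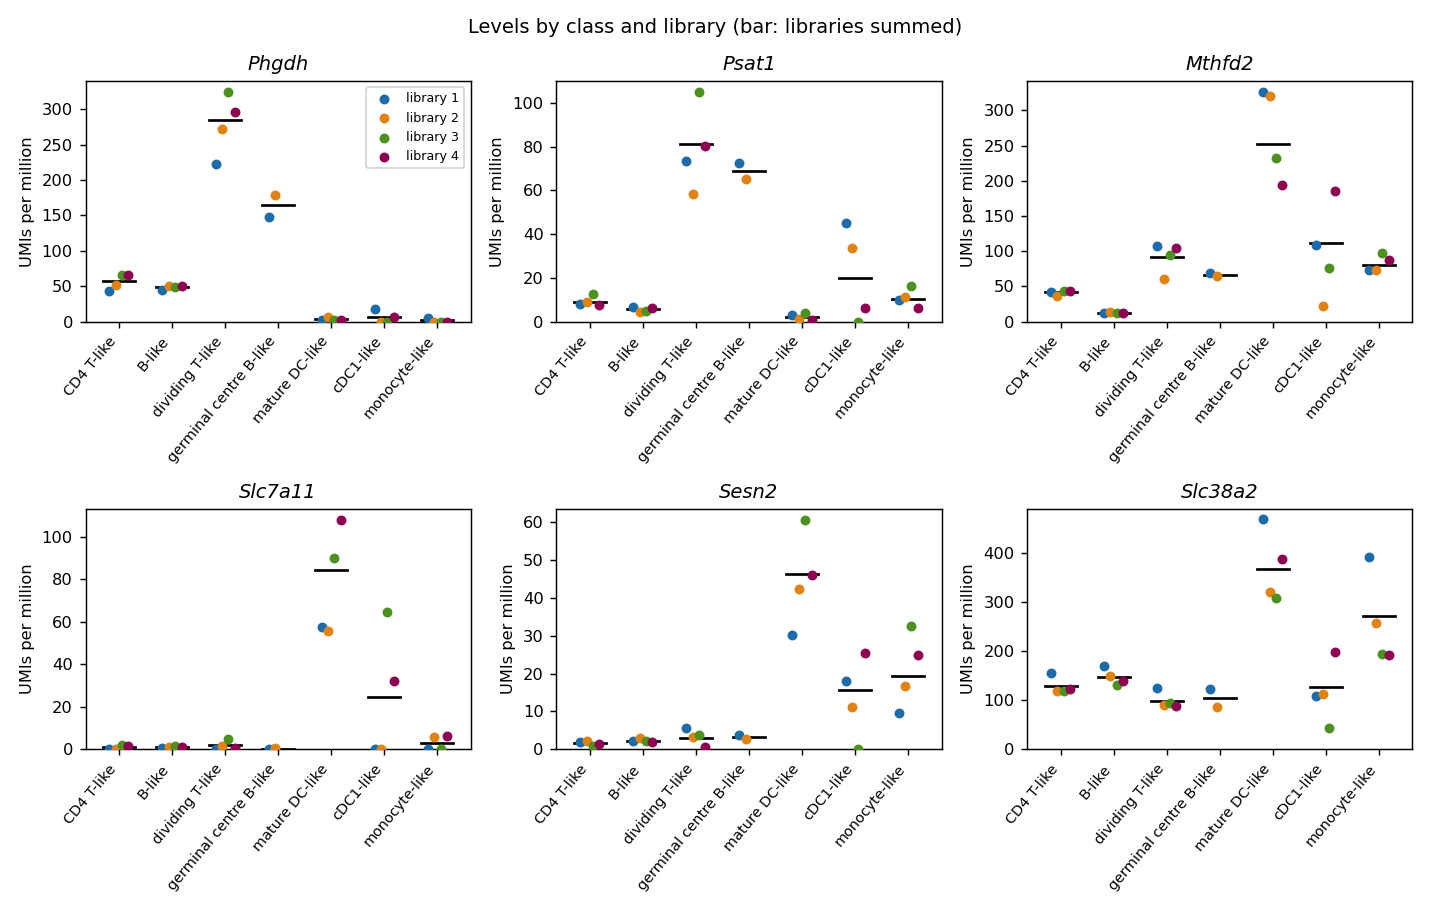
CPM (vertical axes) of 6 members in 7 classes (horizontal axes), with 1 point per library and a bar for the libraries summed; points of libraries with under 5 cells of a class are left out, hence 2 for germinal centre B-like cells. Phgdh and Psat1 are high in dividing T-like and germinal centre B-like cells and near 0 in mature DC-like cells, where Mthfd2 (193 to 326), Slc7a11 (55.6 to 108), Sesn2 and Slc38a2 are high.

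Very small classes are given as levels. Neutrophil-like cells (18) were at 2122 CPM for Cebpb (exact 95% interval 1792 to 2495) and 319.7 for Slc7a11 (200.4 to 484, on 22 counts). Melanoma-like cells (4, in libraries 1 and 2) were at 2885 CPM for the 35 genes summed. Their median depth was 3517 UMIs in library 1 and 122459.5 in library 2, with 2 cells in each, so that level rests mostly on library 2. Plasma-like cells (7, 6, 1 and 0 in the libraries) were at 198 CPM for Phgdh. Their synthesis genes summed were at 323 CPM over all libraries but at 269 and 166 in libraries 1 and 2. The 1 cell of library 3 thus raised that pooled level.

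Cells with UMIs of several targets were counted over 14 genes that ATF4 is known to induce, after thinning each cell to 1500 UMIs. The list included Psat1, Phgdh, Psph, Shmt2 and Mthfd2, already called higher in dividing T-like and germinal centre B-like cells. Those classes held a mean of 0.73 and 0.52 targets per thinned cell, against 0.28 in non-dividing T-like and 0.18 in B-like cells. The mean was 0.553 in mature DC-like and 0.549 in monocyte-like cells, and 0.69 in the 42 dividing B-like cells counted. The share expected from such levels alone was not computed, so the count does not show that targets occur together. UMIs of 3 or more of them were found in 2.21% of 226 dividing T-like cells (exact Clopper-Pearson interval 0.722 to 5.09%) and 3.09% of 259 germinal centre B-like cells (1.34 to 5.995%). The share was 1.23% in mature DC-like cells (0.402 to 2.86%), 0.405% in CD8 T-like (0.265 to 0.593%), 0.180% in CD4 T-like (0.0585 to 0.420%) and 0.163% in B-like cells (0.0894 to 0.274%). Unthinned shares were 79.6%, 54.2%, 28.1%, 10.9%, 6.73% and 2.10% in the same order. These intervals cover counting over cells pooled from 4 mice and do not test a difference between classes. By library the thinned share was 2.44, 3.92, 1.45 and 1.54% in dividing T-like cells, on 1, 2, 1 and 1 cells, and 0.220, 0.277, 0.557 and 0.503% in CD8 T-like cells. It was higher in dividing T-like cells in each library, but the intervals overlapped in each, for example 0.0367 to 7.81% against 0.255 to 1.05% in library 3. Too shallow to count were 94 B-like cells. Free RNA was present: Hbb-bs, a haemoglobin gene of red cells, had a UMI in 31.3% of B-like, 34.5% of dividing T-like and 65.00% of germinal centre B-like cells.

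Across libraries, in 212 pairs of a member and a class with enough counts, the highest library was a median of 1.43 times the lowest, 89 pairs differed over 1.5-fold and 26 over 2-fold. The 5 widest were Asns in CD8 T-like cells (15.2-fold), Mthfd2 in cDC1-like (8.26-fold), Ddit4 in activated B-like (7.02-fold), Nupr1 in monocyte-like (5.39-fold) and Cebpb in activated B-like cells (5.28-fold).

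Asns in T cells had the widest spread of all. CD8 T-like cells held 2, 2, 21 and 40 counts in libraries 1 to 4, in 2, 2, 17 and 31 cells, or 0.191, 0.186, 1.75 and 2.82 CPM. The exact intervals of libraries 1 and 2 reached up to 0.688 and 0.671 CPM, and those of libraries 3 and 4 began at 1.08 and 2.01, so they did not overlap. Because this pair was picked for its wide spread, and the intervals cover counting error only, their separation is not a test. CD4 T-like cells held 0, 0, 8 and 6 counts; the intervals of the empty libraries reached 0.920 and 1.004 CPM, and those of libraries 3 and 4 began at 0.818 and 0.470, so these overlapped. Non-dividing T-like cells as a whole held 3, 1, 52 and 58 counts (0.165, 0.0537, 2.47 and 2.28 CPM). B-like cells held 1, 1, 9 and 1 counts, the 9 of library 3 in 4 cells, so library 4 did not show in B-like cells the level of its T cells. In CD8 T-like cells without any division gene the counts were 1, 1, 19 and 38. In all CD8 T-like cells, dividing genes or not, Psat1 was at 8.39, 9.56, 9.40 and 10.4 CPM and Phgdh at 59.1, 64.6, 77.9 and 79.3, a narrower spread than that of Asns. No library could be tied to a treatment, and no test was made.

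**Figure D4:**
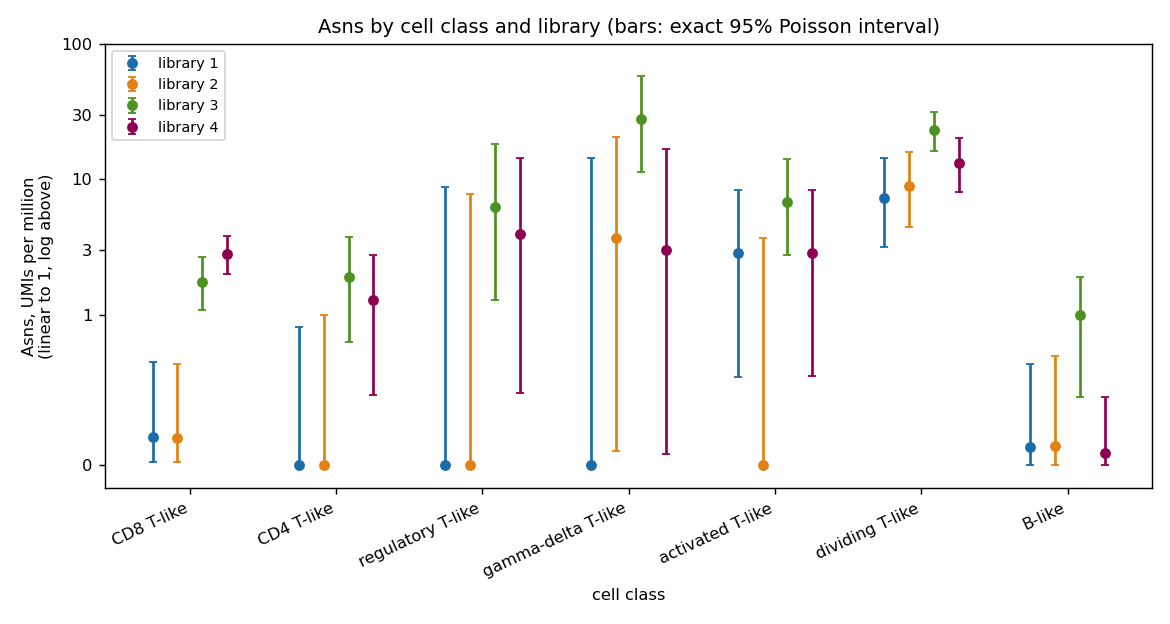
Asns in CPM (vertical axis, linear up to 1 and logarithmic above) in 7 classes (horizontal axis), with 1 point per library and exact 95% Poisson intervals for counting error. In CD8 T-like cells libraries 3 and 4 (1.75 and 2.82) lie above libraries 1 and 2 (0.191 and 0.186), and dividing T-like cells are between 7.33 and 23.02 in all 4.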

How the data were processed

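Single-cell RNA of 4 lymph node samples was captured with 10x Genomics 3' version 3 chemistry. The deposited values are raw UMI counts for 31053 genes in 30824 barcodes, made with cellranger 5.0.0 per the file headers and on build mm10 per the submitters' processing notes; all 47794614 entries were whole. Libraries 1 to 4 held 39589629, 39733183, 40339336 and 53643414 UMIs. The labels state about 2000 cells per sample, whereas 7002, 6978, 7013 and 9831 barcodes were deposited. Whether the authors evened out depth between libraries is not given in the sources used here.

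Gating by markers used barcodes with 300 genes or more and up to 10% mitochondrial UMIs. T and B cells needed 3 of 6 markers and at most 1 of the other lineage; dividing cells 3 of 8, activated cells 3 of 7 and germinal centre B cells 4 of 8 markers. For each class and library the counts were added up and divided by the class total. Free RNA was not removed, and doublets were left ungated when they carried markers of both lineages; Scrublet (scanpy 1.11.5) called 105, 120, 228 and 474 doublets in the libraries, left out in an alternative only. Alternatives also used TMM factors (edgeR 4.0.16, R 4.3.3), other gates, filters and folds, thinned cells and leaving out each library. The rule of 1.5-fold was tested on simulated data, where it missed most genes changed by 1.5-fold in every contrast and called more unchanged genes in the contrasts of 2 libraries than in the others, so that no call does not mean no difference. Called members were named by size of ratio. The members, lists and contrasts were chosen with earlier results of these data known. Calculations used Python 3.11.15, numpy 2.4.6, pandas 2.3.3 and scipy 1.17.1, with plots by matplotlib 3.10.9. Gcn1, Mars1, Castor1 and Castor2 of the other 64 pathway genes had no entry under these symbols. Treated against control, and plasma-like against B-like cells, were not compared.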

Additional observations from a re-analysis of the deposited data

Results flagged for a closer look

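In 57 checks of 4 libraries each, 2 libraries lay further from the others than Dixon's 95% limit for the gap to the nearest library over the whole range, and chance alone gives about 1 in 20 such results. The summed level of the 35 genes in monocyte-like cells was lowest in library 2, with values of 2228, 1515, 2211 and 2269.8 CPM in libraries 1 to 4. That library held 19 of the 74 monocyte-like cells, and Cebpb there was at 561, 370.3, 805 and 821 CPM in the same order. The level of Slc38a2, a carrier of small neutral amino acids, in CD4 T-like cells was highest in library 1, with 155, 118, 119 and 124 CPM in libraries 1 to 4. In B-like cells Slc38a2 was at 170.2, 150.0, 132 and 140.2 CPM, and in CD8 T-like cells at 135, 100.5, 109 and 110.3 CPM. The cause of either difference was not tested.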

How the results depend on the processing

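Over the alternatives, 598 ratios of called members kept their direction and their call, 169 kept the direction without the call, and 2 turned: the ratio of Tars in dividing T-like cells (-0.056) and that of Nars in germinal centre B-like cells (-0.081), both with cells thinned to 1500 UMIs. The numbers below are members called. In dividing T-like cells 16 were called, against 7 at 2-fold, 9 with strict gates, 10 with TMM, 1 with thinned cells (5 tested) and 4 in Cd8-positive cells (20 tested), the last an alternative chosen after seeing the data, as was equal weighting of cells. For activated T-like cells 2 became 0 at 2-fold, with TMM and with thinned cells, and 1 with strict gates and with equal weighting. It became 3 with the stricter barcode filter (25 tested), and in Cd8-positive cells 2 members were higher and 1 lower (20 tested). Regulatory T-like cells went from 0 to 1 with thinned cells (Phgdh). CD8 against CD4 T-like cells went from 1 to 0 at 2-fold, with equal weighting and with thinned cells. B-like against CD4 T-like cells went from 7 to 3 at 2-fold and with thinned cells. Germinal centre B-like cells went from 15 to 2 with thinned cells (12 tested). Activated B-like cells went from 2 to 0 at 2-fold, with the stricter barcode filter and with thinned cells, and to 1 without called doublets and with TMM. Mature DC-like against cDC1-like cells went from 1 to 0 at 2-fold and with thinned cells, 2 with TMM and with equal weighting, and 6 without a filter on low counts. Against monocyte-like cells 5 became 2 with strict gates, 8 without that filter and 1 with thinned cells. Against CD4 T-like cells 16 became 4 with thinned cells. Within germinal centre B-like cells 4 became 1 at 2-fold, 7 without the filter and 0 with thinned cells. Thinning leaves fewer genes with enough counts, and it also moved ratios by over 1.5-fold, 5 of 16 called members in dividing T-like cells, 3 of 15 in germinal centre B-like cells and 7 of 16 in mature DC-like against CD4 T-like cells; the cause of these and the other changes was not tested. Leaving out each library gave 16 to 17 calls in dividing T-like, 2 to 3 in activated T-like, 0 to 1 in regulatory T-like, 1 to 2 in CD8 T-like, 7 to 8 in B-like, 2 to 3 in activated B-like, and for mature DC-like cells 1 to 2 against cDC1-like (Nars without library 2, Mthfd2 without library 4), 4 to 5 against monocyte-like and 15 to 17 against CD4 T-like cells. It was not run for the contrasts in libraries 1 and 2. Classes were compared within each library, so these comparisons are paired by library. No paired analysis was possible of treated against control mice by mouse number, because no name ties a library to a mouse. The plasma-like contrast, and germinal centre B-like cells in 4 libraries, could not be made under the rule for want of cells.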
